A study of Mus musculus with 6 samples.

Results

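Interferon-stimulated effector genes and interferon-inducible GTPase genes were followed in UV2 and bEnd.3, a pair of mouse endothelial cell lines. The set held 46 genes, chosen by symbol from the 24411 gene rows of the deposited count table, and each symbol was found. Of these, 36 were RNA sensors, antiviral effectors and their regulators, and 10 were GTPases of the guanylate-binding (Gbp) and immunity-related (Irg) families. All 46 were among the 12720 genes that passed the filter on low counts. The data were 6 bulk RNA-seq libraries, 3 of UV2 and 3 of bEnd.3. UV2, which the labels also write as UV♀2, is given as (BALB/c x C57BL/6)F1 in strain, and bEnd.3, derived from mouse brain endothelium and immortalised by the middle T antigen of polyomavirus, as BALB/c. Both lines had been grown to confluence on 10-cm dishes and then kept without serum for 3 days, and neither received interferon or another added agent according to the labels. Tested genes of chromosome Y had a median log2 fold change, UV2 minus bEnd.3, of -10.8, so the lines also differed in Y transcripts. Each group is 1 line, so the line, its strain, its way of immortalisation and its level of Y transcripts cannot be told apart. The labels also leave unsaid whether replicate libraries of 1 line were grown as separate cultures. P-values therefore measure the spread between these libraries, which may be technical.

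Interferons are cytokines released when a cell detects viral or other foreign nucleic acid. Type I interferon binds a receptor whose kinases activate a transcription factor complex that holds STAT2 and IRF9 and binds interferon-stimulated response elements in promoters, while interferon gamma acts mainly at gamma-activated sites. The genes switched on encode proteins that sense foreign RNA, block viral translation, replication or release, or attack the vacuoles of intracellular parasites, and many endothelial and other cells keep a low level of them without infection.

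The promoter sequences below show the motifs through which these genes are known to be induced. A promoter was the 300 bases from 250 before to 50 after a RefSeq transcript start in GRCm38.p6, the assembly of mm10, and 34 of the 46 genes had an entry in that table. The response element was searched as GAAA, any 2 bases and GAAA again, called the double GAAA motif here, and the gamma-activated site as TTCNNNGAA. Both were searched on either strand, where the double GAAA motif reads TTTC, any 2 bases and TTTC, and matches could overlap each other. At least 1 double GAAA motif lay in the promoters of 13 of 25 effector genes and 8 of 9 GTPase genes, against 3.44% of all 32851 promoters in the table. TTCNNNGAA lay in those of 6 of 25 effector genes and 5 of 9 GTPase genes, against 8.30% of all promoters. Some genes had more than 1 promoter entry. Counted by promoter, as the shares over all promoters are, the double GAAA motif lay in 13 of 28 effector and 8 of 10 GTPase promoters. By that count TTCNNNGAA lay in 6 of 28 and 5 of 10. Sequences run 5′ to 3′ on the strand of the gene, end before the start site, and have matches in capitals. The effector promoters shown are only some of those with the double GAAA motif. Ifit2, Oasl1, Oasl2 and Cmpk2, whose values are also set beside those of other genes below, lacked that motif and are not shown.
Ifit1 (chr19:34640774-34640823, plus strand): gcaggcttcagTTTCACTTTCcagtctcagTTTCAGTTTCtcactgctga
Ifit3 (chr19:34583364-34583423, plus strand): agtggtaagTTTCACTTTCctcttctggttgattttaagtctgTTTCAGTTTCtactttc
Oas1a (chr5:120907526-120907575, minus strand): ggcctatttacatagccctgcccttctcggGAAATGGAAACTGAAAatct
Oas1g (chr5:120887614-120887663, minus strand): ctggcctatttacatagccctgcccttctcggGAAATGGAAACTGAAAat
Oas3 (chr5:120777710-120777759, minus strand): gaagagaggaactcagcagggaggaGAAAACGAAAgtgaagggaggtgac
Isg15 (chr4:156200859-156200908, minus strand): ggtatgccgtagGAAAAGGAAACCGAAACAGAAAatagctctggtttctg
Rsad2 (chr12:26456543-26456592, minus strand): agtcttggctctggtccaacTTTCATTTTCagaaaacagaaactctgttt

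The GTPase promoters below carry both motifs in capitals where both are present. The promoter of Ifi47 had neither motif and is not shown.
Gbp2 (chr3:142620578-142620627, plus strand): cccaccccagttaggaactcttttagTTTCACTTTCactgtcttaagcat
Gbp3 (chr3:142559969-142560018, plus strand): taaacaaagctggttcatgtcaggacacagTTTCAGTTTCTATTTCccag
Gbp7 (chr3:142530226-142530295, plus strand): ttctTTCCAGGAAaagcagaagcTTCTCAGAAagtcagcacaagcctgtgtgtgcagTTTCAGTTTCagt
Irgm1 (chr11:48871426-48871475, minus strand): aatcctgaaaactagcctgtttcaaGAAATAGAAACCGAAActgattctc
Irgm2 (chr11:58214887-58214936, plus strand): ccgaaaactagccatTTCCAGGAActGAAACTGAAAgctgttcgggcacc
Igtp (chr11:58199496-58199545, plus strand): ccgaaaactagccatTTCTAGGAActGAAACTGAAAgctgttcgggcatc
Tgtp1 (chr11:48992302-48992351, minus strand): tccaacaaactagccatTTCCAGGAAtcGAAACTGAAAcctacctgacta
Tgtp2 (chr11:49064261-49064310, minus strand): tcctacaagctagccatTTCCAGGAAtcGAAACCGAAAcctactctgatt
In Irgm2, Igtp, Tgtp1 and Tgtp2 the gamma-activated site was followed, after a gap of 2 bases, by the response element. That joint arrangement was found in 5 of the 32851 promoters, and the other one belonged to Gm12185 on the same chromosome. The 50-base windows of Igtp and Irgm2 differed at 2 bases and those of Tgtp1 and Tgtp2 at 9, while over the full 300 bases the promoters of Tgtp1 and Tgtp2 were 66.8% identical and those of Oas1a and Oas1g 85.3% identical. A match of letters is a description of the sequence and not evidence of binding. In UV2, 6 of the 21 genes with the double GAAA motif were higher, 10 lower and 5 not called by the test described next. Of the 13 genes with a promoter entry and without the motif, 5 were higher, 7 lower and 1 not called. Among all tested genes 33.9% were higher and 33.3% lower, and whether calls go with the motif was not tested.

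The set went both ways between the lines. In UV2, 15 of the 46 genes were higher and 20 lower, and 11 were not called (edgeR's quasi-likelihood test, Benjamini-Hochberg adjusted p under 0.05 over all 12720 genes). Across all tested genes 33.9% were higher and 33.3% lower in UV2, so 67.1% were called, against 76.1% of the 46. The share of genes called is thus near that of the whole transcriptome, and the median log2 fold change of the 46 was -0.027, beside -0.010 over all tested genes. Log2 fold changes are UV2 minus bEnd.3, and levels are CPM, counts per 1000000 after trimmed-mean scaling of the library totals. By more than 2-fold, 4 of the 46 were higher and 4 lower in UV2, while 10.6% of all tested genes were higher and 8.81% lower by that rule. At 16 of the 46 genes every UV2 library was above every bEnd.3 library, and at 20 every UV2 library was below, against 36.5% and 36.8% of all tested genes, or 73.2% in either direction. Summed over the set, the level was 5131 to 5479 CPM in UV2 and 5872 to 6211 CPM in bEnd.3. In bulk RNA, fewer cells expressing a gene and less of its RNA per cell cannot be told apart.

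Both lines carried endothelial transcripts, and markers of other cell types differed between them in level. Pecam1, Cdh5 and Kdr were between 1554 and 4039 CPM as means in both lines and were not called. Of the 12 endothelial markers, 1 was higher in UV2 (Tie1, log2 fold change 0.88), 6 were lower and 5 were not called. Among all tested genes 33.9% were higher and 33.3% lower. The claudin gene Cldn5 was at 0.262 CPM in UV2, against 1052 CPM in bEnd.3, and Robo4 (log2 fold change -2.34) and Emcn (log2 fold change -1.47) were also lower beyond 2-fold, while Eng, Egfl7 and Erg were lower by less. Leukocyte markers summed to 609 to 631 CPM in UV2, against 92.5 to 161 CPM in bEnd.3, and Lyz2 and Cd68 made up nearly all of that sum. The pan-leukocyte gene Ptprc and the macrophage gene Adgre1 had 0 counts in UV2, and 9 of the 12 leukocyte markers were under 1 CPM in every library. Mural and fibroblast markers summed to 11.6 to 22.5 CPM in UV2 and 2.11 to 3.53 CPM in bEnd.3, and epithelial markers to at most 1.04 CPM in either line. The part of Lyz2 and Cd68 in the results below was not tested. Library totals were between 21306441 and 28748128 expected counts.

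**Figure D1:**
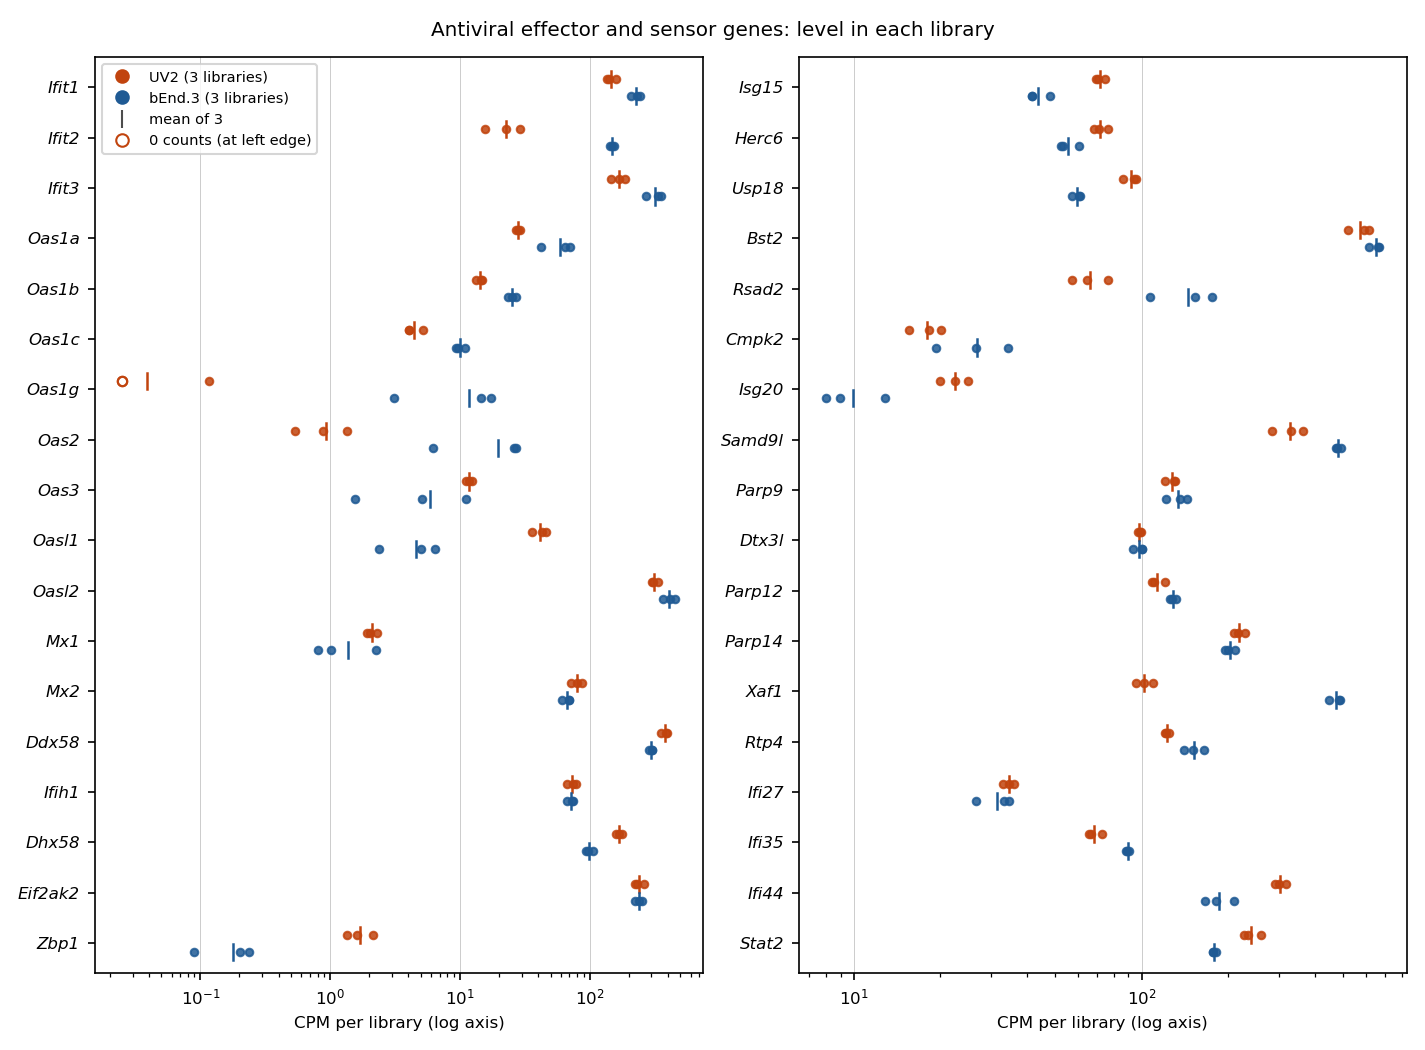
Level of each of the 36 effector and sensor genes in every library, in CPM on a log axis, with UV2 above bEnd.3 in each row, a dot for each of 3 libraries and a bar for their mean. Libraries with 0 counts stand at the left edge as open circles. Oas1g, Oas2, Ifit2 and Xaf1 lie far lower in UV2, and Oasl1 and Zbp1 far higher, while the other genes differ by less.

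The Ifit genes, which encode tetratricopeptide proteins that bind foreign RNA ends and block translation, were all lower in UV2. Ifit1 had 136, 140.5 and 160.3 CPM in UV2, against 209, 246 and 232 CPM in bEnd.3 (log2 fold change -0.65 with an SE of 0.091, adjusted p = 0.000413). Ifit3, whose human counterpart stabilises IFIT1 in protein complexes, had 147, 170.0 and 186 CPM in UV2, against 272, 355 and 336 CPM in bEnd.3 (log2 fold change -0.94 with an SE of 0.12, adjusted p = 0.000328). The largest difference of the family was in Ifit2, with 15.8, 22.6 and 29.2 CPM in UV2, against 153, 143 and 149 CPM in bEnd.3 (log2 fold change -2.72 with an SE of 0.20, adjusted p = 1.39e-05), and it was the one Ifit gene lower by more than 2-fold in the threshold test. The lines did not overlap at any of the Ifit genes, which lie together within 99.5 kb of chromosome 19 (34550550 to 34650009). Of all tested genes, 33.3% were called lower in UV2, and 36.8% had every UV2 library below every bEnd.3 library. Ifit1 and Ifit3 shared reads with close copies: their fractional counts added up to whole numbers, within 0.02, with those of Ifit1bl1 and Ifit1bl2 and with that of Ifit3b. The summed level of Ifit3 and Ifit3b was also lower in UV2 (log2 fold change -0.78 with an SE of 0.11, adjusted p = 0.000423), as was that of Ifit1 with its copies (log2 fold change -0.64 with an SE of 0.090, adjusted p = 0.000432).

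Oas proteins bind double-stranded RNA, and the active ones make short oligoadenylates, a signal for the breakdown of RNA. Of the 8 Oas genes, 6 were lower in UV2, Oasl1 was higher and Oas3 was not called, while 33.3% of all tested genes were lower. Oas1a had 27.8, 27.0 and 28.96 CPM in UV2, against 70.4, 42.3 and 64.7 CPM in bEnd.3 (log2 fold change -1.08 with an SE of 0.18, adjusted p = 0.000932). Oas2 had 1.35, 0.533 and 0.887 CPM in UV2, against 26.9, 6.19 and 26.0 CPM in bEnd.3 (log2 fold change -4.39 with an SE of 0.63, adjusted p = 0.00049). Both were lower in every UV2 library, and bEnd.3 replicate 2 held the lowest value of the 3 bEnd.3 libraries for each. Oas1g, a close copy of Oas1a, had 0, 0 and 0.116 CPM in UV2, against 14.6, 3.09 and 17.3 CPM in bEnd.3, so that a gene with 913 counts over the bEnd.3 libraries had 3 counts over the UV2 libraries. The bEnd.3 level was 280.1 times that of UV2 (95% counting interval 95.5 to 1361, counting error only), and the adjusted p was 0.000336. The fitted log2 fold change, -7.94, became -11.14 on leaving out UV2 replicate 3, which held all 3 counts. Oas1a and Oas1g had fractional counts in 4 libraries, where their decimals added up to whole counts, so these copies shared reads there. In UV2 replicates 1 and 2 both counts were whole, which shows no sharing. The sum of Oas1a and Oas1g was 27.8, 26.9 and 29.1 CPM in UV2, against 85.1, 45.4 and 82.0 CPM in bEnd.3 (log2 fold change -1.34 with an SE of 0.22, adjusted p = 0.000961).

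Oas1b and Oas1c encode proteins without synthetase activity. Oas1b, the flavivirus resistance gene, which is truncated in most inbred laboratory strains and is listed as a transcribed pseudogene in the C57BL/6J annotation, had 14.6, 13.4 and 14.8 CPM in UV2, against 23.3, 25.4 and 27.1 CPM in bEnd.3 (log2 fold change -0.83, adjusted p = 0.000172). Oas1c was at 4.02 to 5.24 CPM in UV2, against 9.28 to 10.9 CPM in bEnd.3 (log2 fold change -1.16). Oasl2, a synthetase with ubiquitin-like domains, was the most abundant Oas gene per kilobase of exon in UV2 and, beside Oasl1, lies apart from the others on chromosome 5. It had 306, 303 and 335 CPM in UV2, against 366, 413 and 459 CPM in bEnd.3 (log2 fold change -0.39, adjusted p = 0.00724).

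Oasl1, which in mouse restrains translation of Irf7 mRNA, went the other way from its neighbour Oasl2. It had 36.2, 42.9 and 46.3 CPM in UV2, against 6.46, 2.4 and 5.02 CPM in bEnd.3 (log2 fold change 3.18 with an SE of 0.30, adjusted p = 5.33e-05), about 9.04 times the bEnd.3 level. Every UV2 library stood above every bEnd.3 library, and the gene was called beyond 2-fold. Oas3, the largest synthetase, had 12.5, 11.2 and 11.7 CPM in UV2, against 11.1, 1.55 and 5.09 CPM in bEnd.3. The lines did not overlap there, but the bEnd.3 values ranged over 7.19-fold and the gene did not pass (log2 fold change 1.01 with an SE of 0.53, adjusted p = 0.129, 95% interval -0.23 to 2.25). Without bEnd.3 replicate 1, the highest of its line, the adjusted p was 0.00549 with a log2 fold change of 1.80, and limma-voom gave an adjusted p of 0.0365. Oas2 and Oas3 lie within the same 177.2 kb of chromosome 5 (120730333 to 120907544) as the Oas1 genes.

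Spread within a line was unequal across the set. The highest library was over 2-fold above the lowest at 6 of the 46 genes in bEnd.3, namely Oas1g, Oas2, Oas3, Oasl1, Mx1 and Zbp1, and at 1 gene, Oas2, in UV2, where Oas1g with its 0 counts gave no ratio. The median ratio of highest to lowest library was 1.14 in UV2 and 1.17 in bEnd.3. Of those 6 genes, Oas1g, Oas2, Oas3 and Oasl1 were lowest in bEnd.3 replicate 2. That library was lowest in bEnd.3 at 18 of the 46 genes, replicate 1 at 23 and replicate 3 at 5. The calls of Oas1g, Oas2 and Oasl1 held without bEnd.3 replicate 2, with log2 fold changes of -8.38, -4.81 and 2.87.

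Mx genes encode dynamin-like GTPases that trap viral ribonucleoproteins, and are grouped here with the antiviral effectors. Both are listed as transcribed pseudogenes in the C57BL/6J annotation, and most inbred laboratory strains carry defective Mx1. Mx2 had 80.1, 71.7 and 87.2 CPM in UV2, against 68.8, 61.4 and 69.0 CPM in bEnd.3 (log2 fold change 0.26 with an SE of 0.090, adjusted p = 0.0311), with all UV2 libraries above all bEnd.3 libraries. That small rise did not pass with total counts (adjusted p = 0.0827) or without UV2 replicate 1 (adjusted p = 0.0644), UV2 replicate 3 (adjusted p = 0.105) or bEnd.3 replicate 2 (adjusted p = 0.0961). Mx1 stood at 1.94 to 2.28 CPM in UV2, against 0.807 to 2.27 CPM in bEnd.3, and did not pass (95% interval -0.28 to 1.45), although it did without bEnd.3 replicate 3 (adjusted p = 0.00645). Mx1 and Mx2 shared reads, and Mx2 took 97.2% to 97.7% of their joint counts in UV2 and 96.8% to 98.8% in bEnd.3.

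Sensors of cytosolic RNA differed by less than 2-fold between the lines. Ddx58, which encodes RIG-I, the sensor of short RNA with triphosphate ends, had 357, 388 and 392 CPM in UV2, against 286, 303 and 302 CPM in bEnd.3 (log2 fold change 0.35 with an SE of 0.068, adjusted p = 0.00223). Dhx58, which encodes LGP2, a regulator of both sensors that lacks a signalling domain of its own, had 169, 159.9 and 178 CPM in UV2, against 97.1, 93.6 and 105 CPM in bEnd.3 (log2 fold change 0.78 with an SE of 0.074, adjusted p = 5.83e-05). UV2 was above bEnd.3 in every library for both, as at 36.5% of all tested genes. Ifih1, which encodes MDA5, the sensor of long double-stranded RNA, had 67.6, 78.7 and 74.4 CPM in UV2, against 73.5, 67.2 and 74.4 CPM in bEnd.3, and the lines overlapped (log2 fold change 0.036, 95% interval -0.15 to 0.22). Median log2 fold changes differed among chromosomes, with 0.25 on chromosome 4, which holds Ddx58, and -0.28 on chromosome 2, which holds Ifih1. The rise of Ddx58 was lost with the median of its chromosome removed (adjusted p = 0.223), and Ifih1 passed as higher by that setting (log2 fold change 0.31, adjusted p = 0.0095). Eif2ak2, the kinase PKR that stops translation on double-stranded RNA, had 234, 264 and 223 CPM in UV2, against 242, 254 and 224 CPM in bEnd.3, and did not pass (95% interval -0.20 to 0.20). Zbp1, a sensor of Z-form nucleic acid that can start necroptosis, was low in both lines, at 1.35 to 2.16 CPM in UV2, against 0.0897 to 0.238 CPM in bEnd.3 (log2 fold change 3.19 with an SE of 0.38, adjusted p = 0.000172), and was called beyond 2-fold.

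Isg15, its ligase gene and its protease gene were each higher in UV2, while the gene of its activating enzyme was lower. Isg15, a ubiquitin-like protein joined to other proteins during the interferon response, had 69.4, 74.6 and 70.4 CPM in UV2, against 41.6, 48.0 and 41.7 CPM in bEnd.3 (log2 fold change 0.71 with an SE of 0.079, adjusted p = 0.000131). Its ligase in mouse, Herc6, had 68.4, 70.9 and 76.3 CPM in UV2, against 52.3, 53.4 and 60.7 CPM in bEnd.3 (log2 fold change 0.37 with an SE of 0.081, adjusted p = 0.0042). Usp18, which takes ISG15 off its targets and also damps the type I receptor, had 85.9, 93.9 and 95.7 CPM in UV2, against 60.4, 61.0 and 57.2 CPM in bEnd.3 (log2 fold change 0.63 with an SE of 0.068, adjusted p = 0.000116). At each of these genes the lowest UV2 library was above the highest bEnd.3 library, as at 36.5% of all tested genes. The share of all tested genes called higher in UV2 was 33.9%. Of the enzymes that prepare ISG15 for its ligase, the activating enzyme gene Uba7 was lower, at 60.1 ± 6.18 CPM in UV2 and 158 ± 18.6 CPM in bEnd.3 (SD, n = 3 each; log2 fold change -1.40 with an SE of 0.11, adjusted p = 2.19e-05), and the conjugating enzyme gene Ube2l6 higher, at 84.6 ± 9.02 CPM in UV2 and 56.8 ± 7.49 CPM in bEnd.3 (log2 fold change 0.58). Both come from the list of further interferon-stimulated genes described at the end. The promoter of Isg15 printed above held 3 overlapping double GAAA motifs, the most of any of the 34 genes. Stat2, the transcription factor subunit that acts with Irf9 at such elements, had 227, 235 and 259.8 CPM in UV2, against 178, 181 and 177 CPM in bEnd.3 (log2 fold change 0.43, adjusted p = 0.000985).

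Among restriction factors and nucleotide-acting enzymes, 3 of 5 genes were lower in UV2, 1 was higher and 1 did not pass. The share of all tested genes that were lower was 33.3%. Rsad2, the radical enzyme viperin that makes a chain-terminating nucleotide, had 57.3, 76.6 and 64.9 CPM in UV2, against 176, 107 and 153 CPM in bEnd.3 (log2 fold change -1.13 with an SE of 0.19, adjusted p = 0.000978). Its neighbour on chromosome 12, the nucleotide kinase Cmpk2, had 15.5, 20.2 and 18.2 CPM in UV2, against 34.4, 19.3 and 26.7 CPM in bEnd.3, and the lines overlapped. Cmpk2 passed by a small margin (log2 fold change -0.58, adjusted p = 0.0366), which was lost with the replicate number as a block (adjusted p = 0.069), with the chromosome median removed (adjusted p = 0.116), and without any 1 of the libraries other than bEnd.3 replicate 2 (adjusted p between 0.052 and 0.125). Samd9l, which restricts poxviruses, had 329.8, 285 and 365 CPM in UV2, against 478, 494 and 473 CPM in bEnd.3 (log2 fold change -0.56 with an SE of 0.095, adjusted p = 0.00118). The exonuclease gene Isg20 was the higher one, with 25.0, 22.5 and 20.0 CPM in UV2, against 12.9, 8.02 and 8.96 CPM in bEnd.3 (log2 fold change 1.18 with an SE of 0.18, adjusted p = 0.000763). Bst2, the tetherin that holds budding virions at the cell surface, was the most abundant of the 46 genes per kilobase of exon, at 726 CPM per kilobase in UV2 and 822 in bEnd.3, and had 591, 521 and 614 CPM in UV2, against 619, 669.6 and 664 CPM in bEnd.3. The lines did not overlap at Bst2, but it did not pass (95% interval -0.37 to 0.014, adjusted p = 0.0891). With total counts it passed as lower (adjusted p = 0.0334), as it did with chromosome medians removed (adjusted p = 0.0101).

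ADP-ribosyltransferase genes were nearly level between the lines. Parp9 and Dtx3l are neighbours on chromosome 16 whose products form a complex that ubiquitinates histones and viral proteins. Parp9 had 121, 131 and 129.6 CPM in UV2, against 121, 144 and 136 CPM in bEnd.3. Dtx3l had 97.1, 98.5 and 99.2 CPM in UV2, against 93.7, 101 and 101 CPM in bEnd.3. Neither passed, with 95% intervals of the log2 fold change of -0.26 to 0.11 for Parp9 and -0.14 to 0.14 for Dtx3l. The decimals of this neighbouring pair added up to whole counts in every library, and the sum of both did not pass either (log2 fold change -0.042 with an SE of 0.071, adjusted p = 0.616). Parp14 had 217, 229 and 209 CPM in UV2, against 196, 199 and 211 CPM in bEnd.3 and did not pass (95% interval -0.042 to 0.27). Parp12, which acts on viral proteins and translation, had 111, 109 and 120.4 CPM in UV2, against 125, 127 and 132 CPM in bEnd.3, and its small fall (log2 fold change -0.18, adjusted p = 0.0432) did not pass in DESeq2 (adjusted p = 0.0572) or without filtering (adjusted p = 0.0673), nor without UV2 replicate 1 or 2 or bEnd.3 replicate 2 or 3 (adjusted p between 0.0875 and 0.148).

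Of the remaining effector genes, Xaf1 held the clearest difference. Xaf1, an antagonist of the apoptosis inhibitor XIAP (chromosome 11, 72301461 to 72313733), had 102, 95.7 and 109 CPM in UV2, against 447, 487 and 485 CPM in bEnd.3 (log2 fold change -2.21 with an SE of 0.078, adjusted p = 4.20e-07), and it was lower beyond 2-fold. Rtp4, a chaperone of receptor transport that also binds viral RNA, had 122, 121 and 125 CPM in UV2, against 140.1, 165 and 150.5 CPM in bEnd.3 (log2 fold change -0.31). Ifi35, a partner of Nmi, had 66.7, 65.8 and 72.9 CPM in UV2, against 89.3, 88.1 and 90.6 CPM in bEnd.3 (log2 fold change -0.38). Both fell, while Ifi44, a gene induced by type I interferon, rose, with 316, 290.4 and 301 CPM in UV2, against 209, 166 and 181 CPM in bEnd.3 (log2 fold change 0.71, adjusted p = 0.000334). Ifi27, a small mitochondrial protein gene, had 36.1, 32.9 and 34.6 CPM in UV2, against 33.1, 26.6 and 34.6 CPM in bEnd.3 and did not pass (95% interval -0.12 to 0.39), although it passed as higher with chromosome medians removed (adjusted p = 0.0444). Its decimals added up with those of Ifi27l2a, which fell in UV2 (log2 fold change -2.53), and the sum of the pair fell too (log2 fold change -1.51 with an SE of 0.22, adjusted p = 0.000463). Over the 36 effector and sensor genes, 11 were higher, 16 lower and 9 did not pass, beside 33.9% higher and 33.3% lower of all tested genes. The 36 genes had a median log2 fold change of -0.037 and a summed level of 4271 to 4561 CPM in UV2, against 5036 to 5294 CPM in bEnd.3.

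**Figure D2:**
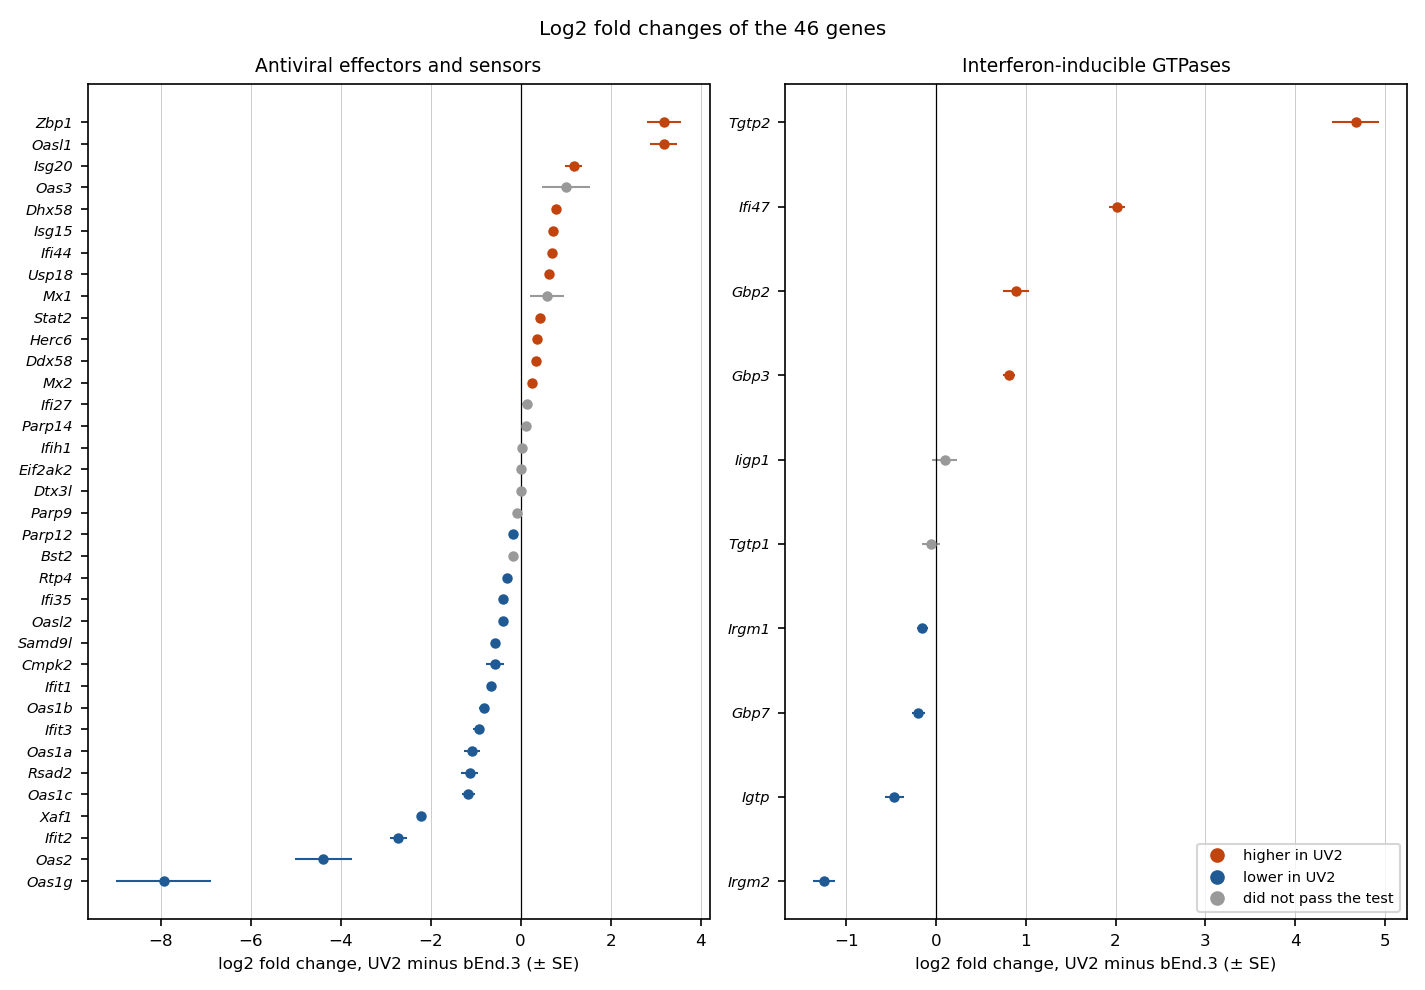
Log2 fold changes, UV2 minus bEnd.3, with SE from edgeR's quasi-likelihood fit, for the 36 effector and sensor genes and the 10 GTPase genes, coloured by whether each was higher in UV2, lower or did not pass the test. The values run from -7.94 for Oas1g to 3.19 for Zbp1 in the effectors, and from -1.25 for Irgm2 to 4.67 for Tgtp2 in the GTPases.

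The GTPases also went both ways, with 4 of 10 higher in UV2, 4 lower and 2 that did not pass. That split is near the 33.9% higher and 33.3% lower of all tested genes. Their summed level was 858 to 918 CPM in UV2 and 836 to 917 CPM in bEnd.3, so the lines overlapped in the sum, and the median log2 fold change was 0.021. By more than 2-fold, Tgtp2 and Ifi47 were higher and none of the 10 was lower in the threshold test. Guanylate-binding proteins coat the vacuoles of intracellular pathogens. Gbp2 had 92.2, 72.3 and 95.6 CPM in UV2, against 46.5, 39.0 and 54.2 CPM in bEnd.3 (log2 fold change 0.90 with an SE of 0.15, adjusted p = 0.000921). Gbp3 had 178, 177 and 169.7 CPM in UV2, against 104, 93.8 and 100.5 CPM in bEnd.3 (log2 fold change 0.81 with an SE of 0.066, adjusted p = 2.58e-05). Both rose without overlap between the lines, whereas Gbp7 had 127, 133 and 141 CPM in UV2, against 154, 146 and 159.6 CPM in bEnd.3, a small fall (log2 fold change -0.20, adjusted p = 0.0352).

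Gbp2, Gbp3 and Gbp7 lie within 107.7 kb of chromosome 3 (142530336 to 142638008), and some of their reads were shared with related genes nearby. Gbp3 took 54.6% to 58.3% of the joint counts of Gbp3 and Gbp7 in UV2, against 38.6% to 40.4% in bEnd.3. The sum of the pair was 306, 309 and 311 CPM in UV2, against 258, 239.7 and 260.1 CPM in bEnd.3, which was higher in UV2 (log2 fold change 0.29 with an SE of 0.063, adjusted p = 0.0042). Gbp2 took 73.5% to 75.4% of its joint counts with Gbp2b in UV2, against 55.2% to 58.7% in bEnd.3, and their sum was higher in UV2 (log2 fold change 0.50 with an SE of 0.16, adjusted p = 0.0217). The fall of Gbp7 did not pass without filtering (adjusted p = 0.0515) or without UV2 replicate 1 or 2 or bEnd.3 replicate 1 or 3 (adjusted p between 0.0575 and 0.14).

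**Figure D3:**
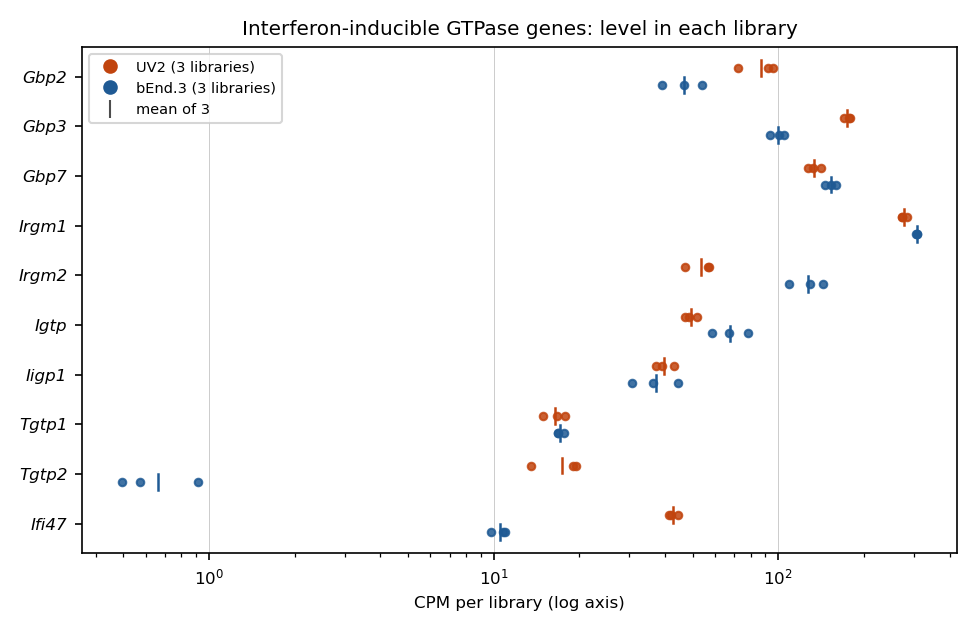
Level of each of the 10 GTPase genes in every library, in CPM on a log axis, with UV2 above bEnd.3 in each row, a dot for each of 3 libraries and a bar for their mean. Tgtp2 and Ifi47 lie far to the right in UV2, Irgm2 lies to the left, and Iigp1 and Tgtp1 overlap.

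Immunity-related GTPases of the mouse fall into regulators of the Irgm type that guard the cell's own membranes and effectors that load onto and break parasite vacuoles. All 3 regulators were lower in UV2, as were 33.3% of all tested genes. Irgm1 had 273, 272 and 283 CPM in UV2, against 305, 308 and 308 CPM in bEnd.3, a difference at the edge of the threshold (log2 fold change -0.15, adjusted p = 0.0473). It did not pass with the replicate number as a block (adjusted p = 0.0646), with size factors as in DESeq2 (adjusted p = 0.0563), with either other filter, with the median of chromosome 11 (-0.13) removed, or without any 1 library (adjusted p between 0.058 and 0.152). Irgm2 had 56.8, 47.2 and 57.0 CPM in UV2, against 109, 129 and 144 CPM in bEnd.3 (log2 fold change -1.25 with an SE of 0.12, adjusted p = 6.44e-05). Igtp, the third regulator, had 48.7, 47.2 and 51.8 CPM in UV2, against 58.4, 67.3 and 78.0 CPM in bEnd.3 (log2 fold change -0.47 with an SE of 0.11, adjusted p = 0.00572). Irgm2 and Igtp lie side by side within 23.2 kb of chromosome 11 (58199556 to 58222783), and their printed promoter windows differed at 2 of 50 bases. They shared reads, and their sum had 105, 94.3 and 109 CPM in UV2, against 167, 196 and 222 CPM in bEnd.3, which was lower in UV2 (log2 fold change -0.92 with an SE of 0.11, adjusted p = 0.000201). Irgm2 took 50.02% to 53.8% of that sum in UV2, against 64.9% to 65.7% in bEnd.3.

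None of the effector Irg genes was lower in UV2 in the test, against 33.3% of all tested genes. Iigp1, the best studied of them, had 39.1, 37.2 and 42.9 CPM in UV2, against 30.6, 36.4 and 44.6 CPM in bEnd.3, with overlap between the lines (95% interval -0.22 to 0.41). Ifi47 had 42.1, 44.5 and 41.2 CPM in UV2, against 11.0, 10.8 and 9.81 CPM in bEnd.3 (log2 fold change 2.02 with an SE of 0.087, adjusted p = 1.08e-06), or 4.04 times the bEnd.3 level. Its lowest UV2 library was above its highest bEnd.3 library. Tgtp2 had 19.5, 13.5 and 19.0 CPM in UV2, against 0.493, 0.57 and 0.917 CPM in bEnd.3 (log2 fold change 4.67 with an SE of 0.26, adjusted p = 3.50e-06). Its near copy Tgtp1 had 17.9, 14.9 and 16.7 CPM in UV2, against 16.8, 16.8 and 17.7 CPM in bEnd.3 and did not pass (95% interval -0.28 to 0.18). Thus bEnd.3 held almost only Tgtp1, which took 95.03% to 97.1% of the counts of the pair there, while in UV2 it took 46.8% to 52.6%. Summed, the pair had 37.4, 28.4 and 35.7 CPM in UV2, against 17.3, 17.4 and 18.6 CPM in bEnd.3 (log2 fold change 0.93 with an SE of 0.12, adjusted p = 0.000249). Tgtp1, Tgtp2 and Ifi47 lie within 111.7 kb of chromosome 11 (48985329 to 49096987). Counts of Tgtp1 and Tgtp2 added up to a whole number, within 0.02, in 5 of 6 libraries, the exception being bEnd.3 replicate 1, so these copies shared reads with each other. By the strain labels UV2 has a C57BL/6 parent and bEnd.3 has none, and the build mm10 is of C57BL/6J, so for such copies a difference in expression and a difference between strains in how reads are assigned cannot be told apart.

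**Figure D4:**
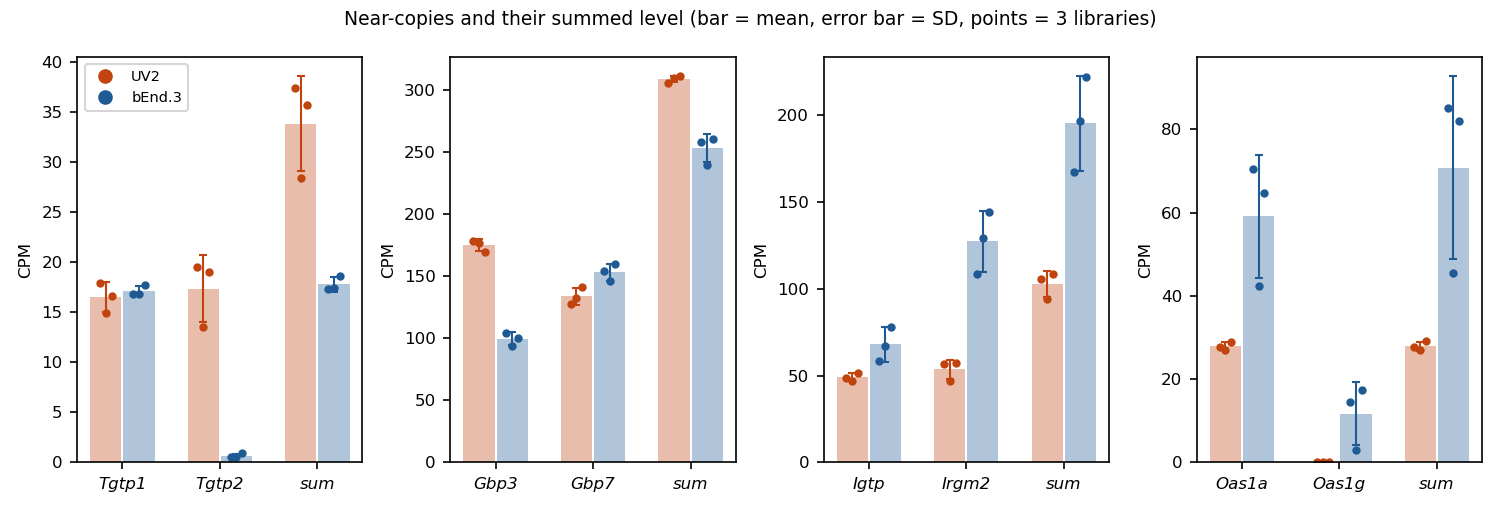
CPM of 4 pairs of related genes of the same chromosome that shared reads, and of their sum, with UV2 left of bEnd.3. Bars give the mean, error bars the SD and points the 3 libraries. Not all 4 pairs are near copies. The sum is higher in UV2 for Tgtp1 with Tgtp2 and for Gbp3 with Gbp7, and lower for Igtp with Irgm2 and for Oas1a with Oas1g.

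Upstream of these genes, transcripts of the interferons themselves were nearly absent in both lines. Of 12 interferon genes, 11 stayed under 1 CPM in every library, and Ifnb1 had 2 counts over the UV2 libraries and 3 counts over the bEnd.3 libraries. Ifne, the epithelial interferon epsilon, was the 1 interferon gene tested, with 8.96, 9.69 and 8.21 CPM in UV2, against 1.7, 1.02 and 0.611 CPM in bEnd.3 (log2 fold change 3.04 with an SE of 0.31, adjusted p = 7.63e-05). Among receptors and kinases 2 of 8 tested genes were higher in UV2 and 4 lower, against 33.9% and 33.3% of all tested genes. Of the type I receptor chains, Ifnar1 had 407 ± 17.9 CPM in UV2 and 387 ± 48.4 CPM in bEnd.3 and did not pass (95% interval -0.15 to 0.30; values after ± are SD here and below, n = 3 each). Ifnar2 was lower, at 54.1 ± 3.17 CPM in UV2 and 71.6 ± 1.73 CPM in bEnd.3 (log2 fold change -0.40). Ifngr1, the ligand-binding chain of the interferon gamma receptor, had the highest fold change called in this list, at 78.8 ± 12.6 CPM in UV2 and 40.9 ± 2.53 CPM in bEnd.3 (log2 fold change 0.95). Il10rb, the shared chain of the interferon lambda receptor, had the lowest fold change, at 66.9 ± 2.52 CPM in UV2 and 158 ± 20.9 CPM in bEnd.3 (log2 fold change -1.24).

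Of 10 transcription factor genes 7 were higher, 1 lower and 2 did not pass, with a median log2 fold change of 0.50, while 33.9% of all tested genes were higher. Irf9, the partner of Stat2, had 185 ± 10.9 CPM in UV2 and 98.1 ± 9.51 CPM in bEnd.3 (log2 fold change 0.91). Irf1, which interferon gamma induces, had 70.7 ± 5.38 CPM in UV2 and 44.4 ± 4.71 CPM in bEnd.3 (log2 fold change 0.67), and Irf8 had the highest fold change of the list, at 69.2 ± 8.23 CPM in UV2 and 22.4 ± 4.71 CPM in bEnd.3 (log2 fold change 1.63). Irf7, the amplifier of type I interferon, had 146 ± 11.3 CPM in UV2 and 144 ± 17.5 CPM in bEnd.3 and did not pass (95% interval -0.22 to 0.26), and Irf3 was the lower one at 41.2 ± 2.9 CPM in UV2 and 70.0 ± 8.29 CPM in bEnd.3 (log2 fold change -0.77). Among 12 adaptors of nucleic acid sensing, 8 were higher, 2 lower and 2 did not pass. By fold change, the kinase gene Ikbke was the highest, at 23.8 ± 4.32 CPM in UV2 and 4.98 ± 1.41 CPM in bEnd.3 (log2 fold change 2.26) and Azi2, an adaptor of such kinases, the lowest, at 58.7 ± 0.37 CPM in UV2 and 79.8 ± 3.11 CPM in bEnd.3 (log2 fold change -0.44).

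Of 9 genes listed as feedback inhibitors, 4 were higher, 3 lower and 2 did not pass. The higher ones included the exonuclease gene Isg20l2 (log2 fold change 0.64), which is not an established inhibitor of interferon signalling. By fold change, Socs1, an inhibitor of the receptor kinases, was the highest, at 2.79 ± 0.273 CPM in UV2 and 0.974 ± 0.193 CPM in bEnd.3 (log2 fold change 1.51), close to Socs3 (log2 fold change 1.48), and Trim21 the lowest of those above 1 CPM, at 21.4 ± 2.34 CPM in UV2 and 41.1 ± 3.98 CPM in bEnd.3 (log2 fold change -0.94). Of 50 tested genes in a list of further interferon-stimulated genes, 30 were higher in UV2, 13 lower and 7 did not pass. Their median log2 fold change was 0.52, and 33.9% of all tested genes were higher. Cxcl9, a chemokine induced by interferon gamma, had 100 counts over the UV2 libraries and 1 count over the bEnd.3 libraries, a ratio of 109 (95% counting interval 19.1 to 4335) that does not rank it above Trim30d, at 48.5 ± 2.17 CPM in UV2 and 0.638 ± 0.329 CPM in bEnd.3 (log2 fold change 6.19). Epsti1 had the lowest fold change, at 0.113 ± 0.100 CPM in UV2 and 2.92 ± 0.439 CPM in bEnd.3 (log2 fold change -4.62). Of the Gbp genes in that list, Gbp4, Gbp5, Gbp8, Gbp10 and Gbp11 were higher, and Gbp6 and Gbp9 did not pass. Gbp4 had 1550.1 ± 259 CPM in UV2 and 641 ± 111 CPM in bEnd.3 (log2 fold change 1.27) and Gbp5 had 33.3 ± 1.41 CPM in UV2 and 4.46 ± 1.36 CPM in bEnd.3 (log2 fold change 2.90). The Gbp genes other than the 3 members are named here after their values were seen. Whether the 46 genes differed from these lists in direction was not tested.

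**Figure D5:**
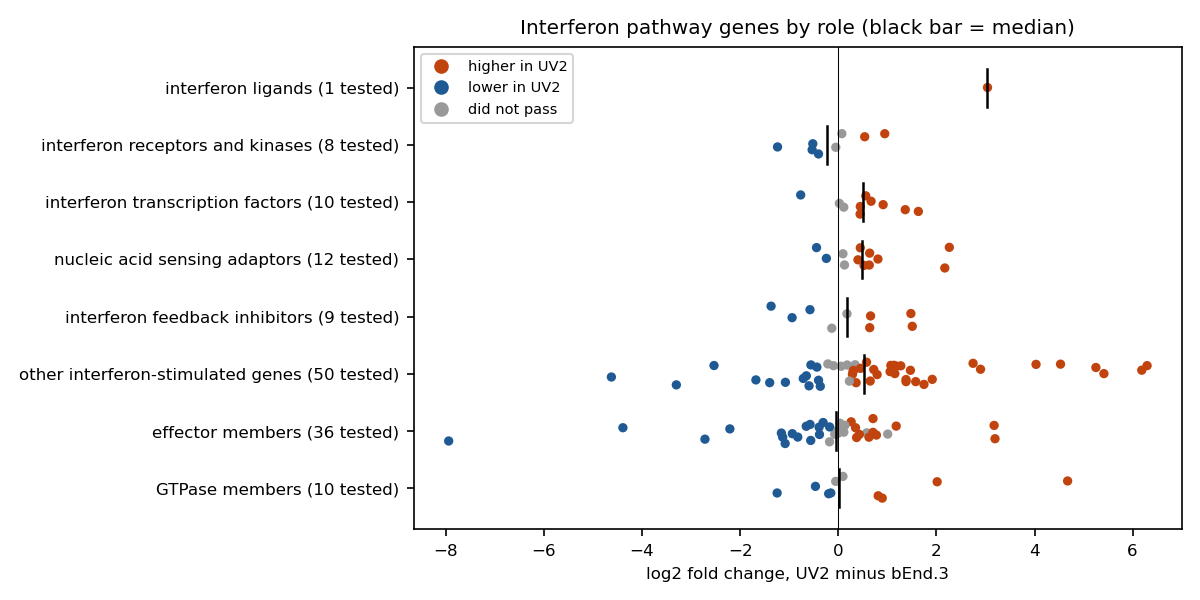
Log2 fold changes, UV2 minus bEnd.3, of the tested genes of each interferon pathway list and of the 36 effector and 10 GTPase genes, 1 dot a gene, coloured by call, with a black bar at the median. The medians lie at 0.50 for transcription factors, 0.52 for further interferon-stimulated genes, -0.037 for the effectors and 0.021 for the GTPases.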

How the data were processed

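The authors deposited expected counts per gene symbol, not normalized, in 1 table of 6 libraries. Trim Galore, STAR and RSEM, with the build mm10, are named in the submitters' processing notes. The annotation, strand setting and versions are not given. Per the labels, the library kit was stranded and selected mRNA. Expected counts split reads among close copies, so between copies the values are uncertain.

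Counts were rounded, filtered with filterByExpr (12720 of 24411 genes kept) and scaled by TMM (factors 0.969 to 1.027). The fit was edgeR's quasi-likelihood test with line as the only term, SE being the fold change over the root of F, and intervals its t-based 95% range. Adjusted p-values are Benjamini-Hochberg over all tested genes, and glmTreat tested changes beyond 2-fold. Deviations of same-numbered UV2 and bEnd.3 libraries were weakly correlated (r = 0.13, 0.23 and 0.28), and other pairs had r from -0.30 to 0.084. With 3 libraries a line this does not establish a pairing, and the labels state none. The main fit therefore left pairing out, and the replicate number was a block in 1 alternative only. No library was a copy of another (chi-square per degree of freedom 11.3 to 38.4).

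Positions, promoters and biotypes came from RefSeq for GRCm38.p6, and merged exon lengths from GENCODE M21. Genes were taken to share reads if within 1000000 bases and with counts that summed to whole numbers within 0.02 in all libraries. Tgtp1 with Tgtp2 was added. Such genes are called copies here, near copies or not, and the rule does not give the number of reads shared. A gene with 1 to 3 counts in a line was given as a ratio with an exact counting interval. Each library's value is given for genes of the set whose mean reached 10 CPM in either line. Pathway lists name the called genes above 1 CPM with the highest and lowest fold change, plus Irf1, Irf7, Irf9, Ifnar1, Ifnar2, Ifngr1 and Ifnb1; 1 further gene of that rule is not reported here. Ifi27l2a, Gbp4, Gbp5, Uba7, Ube2l6, Socs3, Isg20l2 and Trim30d were chosen after their values were seen. The members and lists were chosen with earlier results of these data known.

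Alternatives were DESeq2's size factors, total counts, other filters, the replicate block, leaving out each library, DESeq2, limma-voom and removal of chromosome medians. Sums of copies were added after seeing the data. On simulated data, 5 sets with 200 changed genes among 12720, 87.8% of 2-fold and 99.8% of 4-fold changes were called, and 6.96% of calls were of unchanged genes. In the real data far more genes were called, so those rates need not hold there. Python 3.11.15 with Biopython 1.88 and matplotlib 3.10.9 was used beside R 4.3.3 with DESeq2 1.42.0, edgeR 4.0.16 and limma 3.58.1.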

Additional observations from a re-analysis of the deposited data

How the results depend on the processing

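Of the 35 genes of the set that were called, 29 kept their direction and their call under all 14 alternative settings other than sums of copies, 13 of them higher and 16 lower in UV2. The other 6 were Cmpk2, Ddx58, Gbp7, Irgm1, Mx2 and Parp12, and the cause was not tested. Their log2 fold changes ran from -0.58 for Cmpk2 to 0.35 for Ddx58. Some genes that kept their call changed by less than Cmpk2, such as Rtp4 (log2 fold change -0.31). The replicate number as a block lost the calls of Cmpk2 and Irgm1 and of no other member. With it, 15 members were higher and 18 lower, 3 GTPases were lower, and 4380 genes were higher and 4302 lower overall. The count of lower GTPases, 4, was 2 without filtering and 2 to 3 with 1 library left out. All other counts of calls stayed within 1.5 times.

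Signs turned only at genes that did not pass, apart from Gbp7. Dtx3l was 0.0048 with DESeq2's size factors, 0.0010 without filtering, 0.0077 with at least 1 CPM in 3 libraries, 0.0046 in DESeq2, 0.017 with chromosome medians removed and -0.035 to 0.022 with 1 library left out. Eif2ak2 was 0.0055, 0.0012, 0.0080 and 0.0054 under the first 4 of these and -0.069 to 0.054 with 1 library left out. Ifih1 was -0.030 with total counts and -0.011 to 0.11 with 1 library left out, and Iigp1 was -0.027 to 0.24. Tgtp1 was 0.073 with chromosome medians removed, -0.10 to 0.017 with 1 library left out and 0.93 summed with Tgtp2. Sums also turned Gbp7 (0.29 with Gbp3) and Ifi27 (-1.51 with Ifi27l2a), by their construction. Total counts moved the median of all genes to -0.076. Depth limits Oas1g (3 counts in UV2), Zbp1 (14 in bEnd.3), Tgtp2 (52 in bEnd.3) and Oas2 (66 in UV2).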
